A study of Mus musculus with 54 samples.

Results

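The genes described here encode the matrix metalloproteases (Mmp), the ADAMTS proteases and the tissue inhibitors of metalloproteases (Timp), followed in mouse 3T3-L1 cells over 288 h. They were chosen by gene symbol alone, as every gene on the array whose symbol is Mmp, Timp or Adamts followed by a digit. The rule took 41 of the 16637 genes on the array, 22 Mmp, 16 Adamts and 3 Timp genes, through 54 probes. A member counted as measured when its mean log2 level over all arrays lay above 6.07, the lower quartile of gene probes. By this measure 30 of the 41 were measured (15 Mmp, 12 Adamts and 3 Timp), among the 12792 measured genes of the whole array. Mmp10 (6.07) and Adamts16 (6.13) lay just inside the threshold, and Adamts19 (6.02) and Adamts20 (5.97) just outside it. The 11 members that were not measured were Mmp1a, Mmp1b, Mmp7, Mmp16, Mmp20, Mmp21, Mmp25, Adamts3, Adamts18, Adamts19 and Adamts20.

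Matrix metalloproteases are zinc proteases that are secreted or held at the cell surface and cleave collagens, proteoglycans and other proteins outside the cell. ADAMTS enzymes are secreted relatives that bind the matrix through thrombospondin repeats, and they trim procollagens or cut large proteoglycans such as versican and aggrecan. TIMPs are small secreted proteins that block the active site of these enzymes. When preadipocytes become fat cells they exchange a fibronectin- and collagen-rich fibroblast matrix for a basement membrane, and both classes of protease and their inhibitors take part in that exchange.

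The cells were 3T3-L1, an established mouse line of fibroblast-like preadipocytes that can be turned into fat cells in culture. There were 3 arms, cells treated with 2 µM prieurianin (a limonoid, a plant triterpenoid), cells treated with 0.5% DMSO, and untreated cells that went through normal differentiation. Each arm was sampled at 18 times, which are 0 h, then 0.25, 0.5, 1, 2 and 3 h, then 5, 9, 12, 15, 24, 36 and 48 h, and last 96, 144, 192, 240 and 288 h, with 1 single-colour array per arm and time and 54 arrays in all. All come from 1 line. The labels do not say whether the prieurianin cells also received DMSO, or when the treated arms received the differentiation stimulus.

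Levels are given as log2(value + 16) of the quantile-normalised intensity, a scale that understates changes of dim genes, and a level can be compared between arrays but not between genes. Arms were compared with limma in 3 windows, with 5 arrays per arm from 0.25 to 3 h, 7 from 5 to 48 h and 5 from 96 to 288 h, and with arms matched by time. Change over the course was taken within an arm, against the 6 arrays from 0 to 3 h. A gene was called at an adjusted p under 0.05 over all 12792 genes. No time has a second array, so different times serve as the replicates. For arm comparisons, p-values rest on how the differences between arms vary over the times of a window. For courses they rest on the spread between times. Adjacent times are related. Values after ± are standard errors of the log2 difference.

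Median intensities of the arrays ran from 88 to 313 before normalisation, and arrays correlated with each other at 0.893 to 0.996. All 7 fat cell markers rose in untreated cells by 96 to 288 h, among them Adipoq, Cfd and Cidec. The mean log2 level of that list was between 10.60 and 14.52 over the 5 late prieurianin arrays, 13.62 and 14.36 over those of DMSO cells, and 13.58 and 14.28 over those of untreated cells. One prieurianin array, at 192 h, stood apart, with a fat cell mean of 14.52 against 10.60 to 12.68 on the other 4 late prieurianin arrays. On it the mean of 4 contractile markers was 11.39, against 11.82 to 11.93 on those 4. It was used as labelled, and whether its label is right was not tested. For genes named below, the late differences and changes of prieurianin cells are therefore given with and without that array. In these cultures, fewer cells of a type and less RNA per cell cannot be told apart.

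During untreated differentiation the stromelysins Mmp3 and Mmp10, the collagenases Mmp8 and Mmp13 and gelatinase B (Mmp9) fell, and Adamts15 and Timp4 rose. At 96 to 288 h, 4 of the 30 measured members were higher than at 0 to 3 h and 10 were lower. Over all genes 34.3% were called in that comparison. The 10 lower members include Mmp10 and Adamts16, which passed the threshold for a measured gene through their earlier arrays. The median change of the members was -0.24 and that of all measured genes 0.01. At 5 to 48 h, 1 member was higher and 7 were lower than at 0 to 3 h, where 16.3% of all genes were called.

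The strongest fall was in Mmp3, stromelysin, which cleaves proteoglycans, fibronectin and laminin and activates other metalloproteases. In untreated cells its log2 level was 9.37, 8.32, 8.31, 9.70 and 10.41 at 96, 144, 192, 240 and 288 h, against 13.54 to 13.69 (median 13.64) over the 6 arrays from 0 to 3 h. No late array reached the range of the early ones. The late level was 21.2-fold lower (log2 -4.41 ± 0.46, limma adjusted p = 1.4e-10). The fall had begun in the middle window, where the level lay between 11.53 and 13.57 with a median of 11.78 (log2 -1.46 ± 0.42, adjusted p = 0.013).

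Mmp10, a second stromelysin, fell alongside it. In untreated cells it was at 5.81, 5.01, 5.37, 5.55 and 5.32 on the late arrays, against 6.79 to 7.45 (median 7.07) on the early ones (log2 -1.70 ± 0.23, limma adjusted p = 1.2e-07). These late levels lie below the threshold for a measured gene, where this scale understates a fold. The mean of Mmp10 passed that threshold only through its early arrays, so its selection and its fall are not independent. Mmp8, the neutrophil collagenase, was at 6.82, 6.47, 7.52, 7.42 and 7.71 late, against 8.22 to 8.90 (median 8.52) early (log2 -1.40 ± 0.29, adjusted p = 0.00012). The late and early arrays of both genes did not overlap.

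Mmp13, the main interstitial collagenase of rodents, had a different course. In untreated cells it stood at 11.50 to 12.04 (median 11.81) from 0 to 3 h, at 9.49, 9.51 and 8.47 at 9, 12 and 15 h, and at 9.10, 8.60, 10.02, 11.17 and 11.43 from 96 to 288 h. It was thus lowest at 15 h and at 144 h, and the arrays at 240 and 288 h came back close to the early range. The fall was called in both windows (log2 -2.11 ± 0.48, limma adjusted p = 0.0017 at 5 to 48 h, and -1.72 ± 0.52, adjusted p = 0.0082 at 96 to 288 h, lost without 144 h at an adjusted p of 0.05). Mmp12, macrophage elastase, was called in neither direction (-0.16 ± 0.23 late).

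These genes lie together. In the RefSeq annotation of mouse assembly GRCm38.p6, Mmp13, Mmp12, Mmp1b, Mmp3, Mmp1a, Mmp10 and Mmp8 are consecutive protein-coding genes on chromosome 9, and Mmp20 and Mmp7 follow after 1 other gene. AP-1, the dimer of Fos and Jun proteins, is the textbook activator of collagenase and stromelysin promoters, so the 250 bases before the start of the 5 measured genes of this cluster are shown, 5′ to 3′ on the + strand. They come from the RefSeq promoter table for GRCm38.p6, at chr9:7272264-7272513 for Mmp13, chr9:7347124-7347373 for the second of the 2 starts listed for Mmp12 (the first, at chr9:7344147-7344396, held no match and is not printed), chr9:7445572-7445821 for Mmp3, chr9:7502092-7502341 for Mmp10 and chr9:7558179-7558428 for Mmp8. Capitals mark a match to the AP-1 letters TGAGTCA on either strand.
Mmp13: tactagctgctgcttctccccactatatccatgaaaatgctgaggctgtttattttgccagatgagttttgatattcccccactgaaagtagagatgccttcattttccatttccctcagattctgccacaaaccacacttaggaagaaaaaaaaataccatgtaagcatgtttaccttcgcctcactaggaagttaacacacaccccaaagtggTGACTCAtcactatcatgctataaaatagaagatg
Mmp12: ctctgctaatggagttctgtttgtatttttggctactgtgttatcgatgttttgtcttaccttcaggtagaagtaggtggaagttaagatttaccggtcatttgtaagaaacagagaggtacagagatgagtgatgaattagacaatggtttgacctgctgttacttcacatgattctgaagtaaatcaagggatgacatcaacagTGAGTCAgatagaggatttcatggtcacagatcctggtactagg
Mmp3: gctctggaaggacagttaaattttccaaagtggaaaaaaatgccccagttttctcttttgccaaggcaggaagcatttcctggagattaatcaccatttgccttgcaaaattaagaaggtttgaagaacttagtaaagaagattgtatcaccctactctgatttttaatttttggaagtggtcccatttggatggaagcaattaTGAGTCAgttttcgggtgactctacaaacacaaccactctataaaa
Mmp10: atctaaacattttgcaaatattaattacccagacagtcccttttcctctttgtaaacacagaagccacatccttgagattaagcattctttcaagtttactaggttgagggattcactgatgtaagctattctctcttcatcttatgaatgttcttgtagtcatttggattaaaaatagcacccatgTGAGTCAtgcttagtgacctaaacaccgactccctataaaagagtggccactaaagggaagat
Mmp8: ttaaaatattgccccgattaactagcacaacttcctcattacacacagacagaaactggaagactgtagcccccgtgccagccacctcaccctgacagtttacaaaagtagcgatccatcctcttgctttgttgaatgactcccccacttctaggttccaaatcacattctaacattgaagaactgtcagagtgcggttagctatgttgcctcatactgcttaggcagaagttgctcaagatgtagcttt

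The AP-1 letters stood 35 to 29 bases before the start of Mmp13 (on the opposite strand), 44 to 38 before that of Mmp12, 46 to 40 before that of Mmp3 and 63 to 57 before that of Mmp10, and there was no match in this window of Mmp8. Of the 27 members with a promoter in the table, 7 held the letters, the other 3 being the unmeasured Mmp1a, Mmp1b and Mmp7 of the same cluster. Of the 18 measured members in the table, 4 held them. Over the 32851 promoters of the table the share was 4.46%. For each string searched, a member counted if any of its listed starts held a match. The share over the table counts each promoter, an unlike unit that favours the members. The PEA3 letters AGGAAG, a core that ETS factors bind, were held by 13 of the 27 and by 29.5% of all promoters, and TATAAA by 9 of the 27 and 12.4%. No one of these strings is contained in another. A match describes the sequence and is not evidence that a factor binds there.

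**Figure D1:**
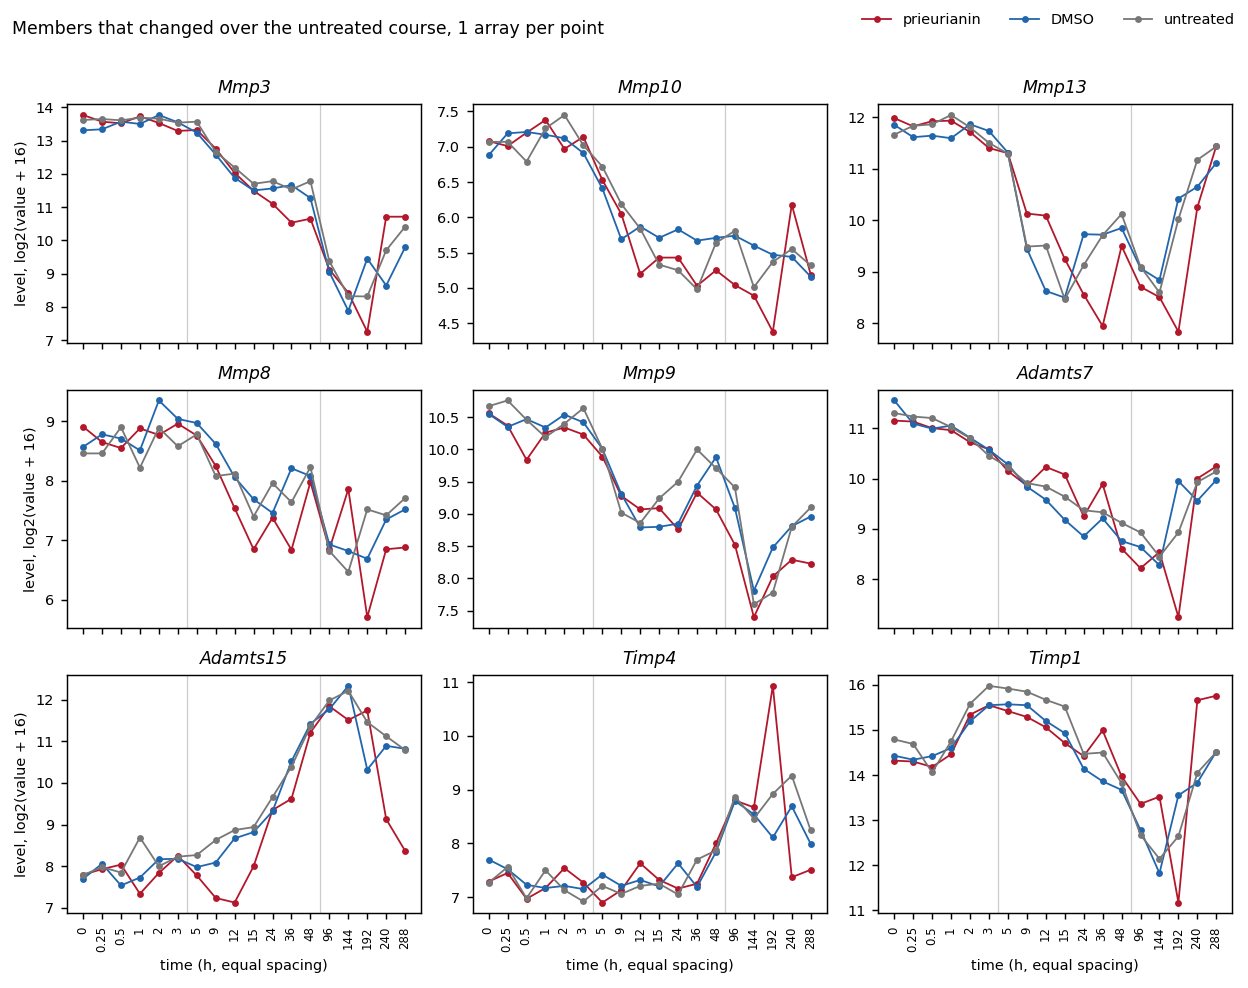
Log2 levels of 9 members at the 18 times (h, evenly spaced, not to scale), 1 array per point, with prieurianin in red, DMSO in blue and untreated in grey. Thin lines separate the windows. Mmp3, Mmp10, Mmp8 and Adamts7 fell over the untreated course and Adamts15 and Timp4 rose, while Timp1 and Mmp13 were lowest at 144 h late in that course and higher again by 288 h.

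Among the gelatinases, which digest denatured collagen and basement membrane collagen, the pair moved in opposite directions. Mmp9, gelatinase B, was at 9.41, 7.60, 7.78, 8.80 and 9.10 in late untreated cells, against 10.19 to 10.76 (median 10.55) early (log2 -1.98 ± 0.26, limma adjusted p = 3.2e-08). Mmp2, gelatinase A, was at 16, 15.98, 16, 15.92 and 15.75 late, against 14.94 to 15.24 (median 15.09) early (0.84 ± 0.19, adjusted p = 0.00048). Mmp2 reached the scanner's ceiling on 3 of the 5 late untreated arrays, 1 of 5 late DMSO arrays and 1 of 5 late prieurianin arrays, so its rise is a lower bound and its differences between late arms are uncertain. Of the other metalloproteases, Mmp23, a membrane-anchored protease, fell by 1.20 ± 0.39 on the log2 scale (adjusted p = 0.013, and 0.073 without 144 h). Mmp14, the membrane-type protease that activates pro-Mmp2, fell at 5 to 48 h (-0.58 ± 0.20, adjusted p = 0.037) and was at -0.17 ± 0.22 late. The earlier call was lost without any 1 of 7 times (adjusted p up to 0.14) and with median centring (0.15).

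In tissue, macrophages and neutrophils are the usual sources of Mmp8, Mmp9 and Mmp12, so markers of both were examined. The macrophage markers Adgre1 and Ptprc and the neutrophil markers Elane, Ngp and S100a9 were not measured. The mean log2 level of the 7 macrophage markers on the array was between 7.10 and 7.96 on late untreated arrays and 7.94 and 8.35 on early ones, with Lyz2 and Cd14 lower and Cd68 higher. That of the 4 neutrophil markers was 6.77 to 7.18 late and 6.80 to 7.05 early. The part of either cell type in these levels was not tested.

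Among the ADAMTS genes, Adamts15, which cuts versican and aggrecan, rose the most. Its log2 level in untreated cells was 11.98, 12.21, 11.46, 11.12 and 10.79 on the late arrays, against 7.79 to 8.69 (median 7.99) on the early ones. That is 10.7-fold higher (3.42 ± 0.59, limma adjusted p = 9.1e-06), and the level was highest at 144 h. Adamts2, the enzyme that removes the amino-terminal propeptide of fibrillar procollagens, rose by 0.54 ± 0.15 (adjusted p = 0.0042) and was already called at 5 to 48 h (0.42 ± 0.14, adjusted p = 0.032), a call lost without any 1 of 6 times (adjusted p up to 0.086). With the values as deposited both calls of Adamts2 were lost (adjusted p = 0.096 late and 0.21 at 5 to 48 h).

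Adamts7, which cuts the cartilage protein Comp, was at 8.93, 8.45, 8.93, 9.93 and 10.14 in late untreated cells, against 10.45 to 11.30 (median 11.11) early (log2 -1.73 ± 0.36, limma adjusted p = 0.00013). The late arrays all lay below the early ones, and the call was also made at 5 to 48 h (-1.37 ± 0.33, adjusted p = 0.0029). Adamts6, which acts on fibrillin microfibrils, fell by 1.14 ± 0.21 (adjusted p = 2.4e-05). Adamts16 fell by 0.90 ± 0.28 (adjusted p = 0.011, and 0.06 without 144 h). Its late untreated levels were 4.92, 4.87, 5.62, 6.13 and 6.06, of which only that at 240 h lay above the threshold for a measured gene. The mean of Adamts16 passed that threshold through its earlier arrays, so its selection and its fall are not independent.

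The inhibitors divided. Timp4, an inhibitor of restricted tissue distribution, was at 8.87, 8.46, 8.92, 9.26 and 8.24 in late untreated cells, against 6.92 to 7.56 (median 7.20) early, with no overlap (1.52 ± 0.30, limma adjusted p = 7.2e-05). Timp1, a soluble inhibitor induced by growth signals, was at 12.67, 12.14, 12.64, 14.05 and 14.51 late, against 14.06 to 15.98 (median 14.77) early (log2 -1.77 ± 0.53, adjusted p = 0.0075). Before it fell, Timp1 had its highest value of the course, 15.98, at 3 h. Timp3, the inhibitor that stays bound to the matrix, was at 9.13, 7.97, 8.38, 9.72 and 10.48 late, against 9.58 to 10.69 (median 10.08) early, and its change of -0.99 ± 0.44 was not called (adjusted p = 0.081). No probe carried the symbol Timp2, and that gene was not analysed here.

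The same 30 members were followed in the other arms. In prieurianin cells 5 were higher and 8 lower late in the course, where 30.4% of all genes were called, and in DMSO cells 4 were higher and 10 lower, where 32.6% were. Mmp3 fell by 4.33 ± 0.46 on the log2 scale in prieurianin cells (log2 -3.83 ± 0.45 without the 192 h prieurianin array), by 4.55 ± 0.46 in DMSO cells and by 4.41 ± 0.46 in untreated cells. Adamts15 rose by 2.65 ± 0.59 in prieurianin cells (2.35 ± 0.63 without that array), 3.33 ± 0.59 in DMSO cells and 3.42 ± 0.59 in untreated cells. Mmp17 rose over the course in prieurianin cells (1.96 ± 0.26, limma adjusted p = 1e-07, and 2.37 ± 0.22 without that array), and was at 0.47 ± 0.26 in DMSO cells and 0.46 ± 0.26 in untreated cells, neither of them called. Timp1, Adamts6 and Adamts16 were called lower in both controls, of which Timp1 and Adamts16 in DMSO cells were lost without single times (adjusted p up to 0.15 and 0.063), and Timp1 also with median centring (0.055). In prieurianin cells the changes of Timp1, Adamts6 and Adamts16 were -0.80 ± 0.53, -0.01 ± 0.21 and -0.36 ± 0.28 with all arrays, and -0.11 ± 0.50, 0.14 ± 0.22 and -0.11 ± 0.29 without the 192 h prieurianin array, none of them called. Timp4 rose by 1.38 ± 0.30 in prieurianin cells with the 192 h array, and by 0.81 ± 0.22 without it.

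**Figure D2:**
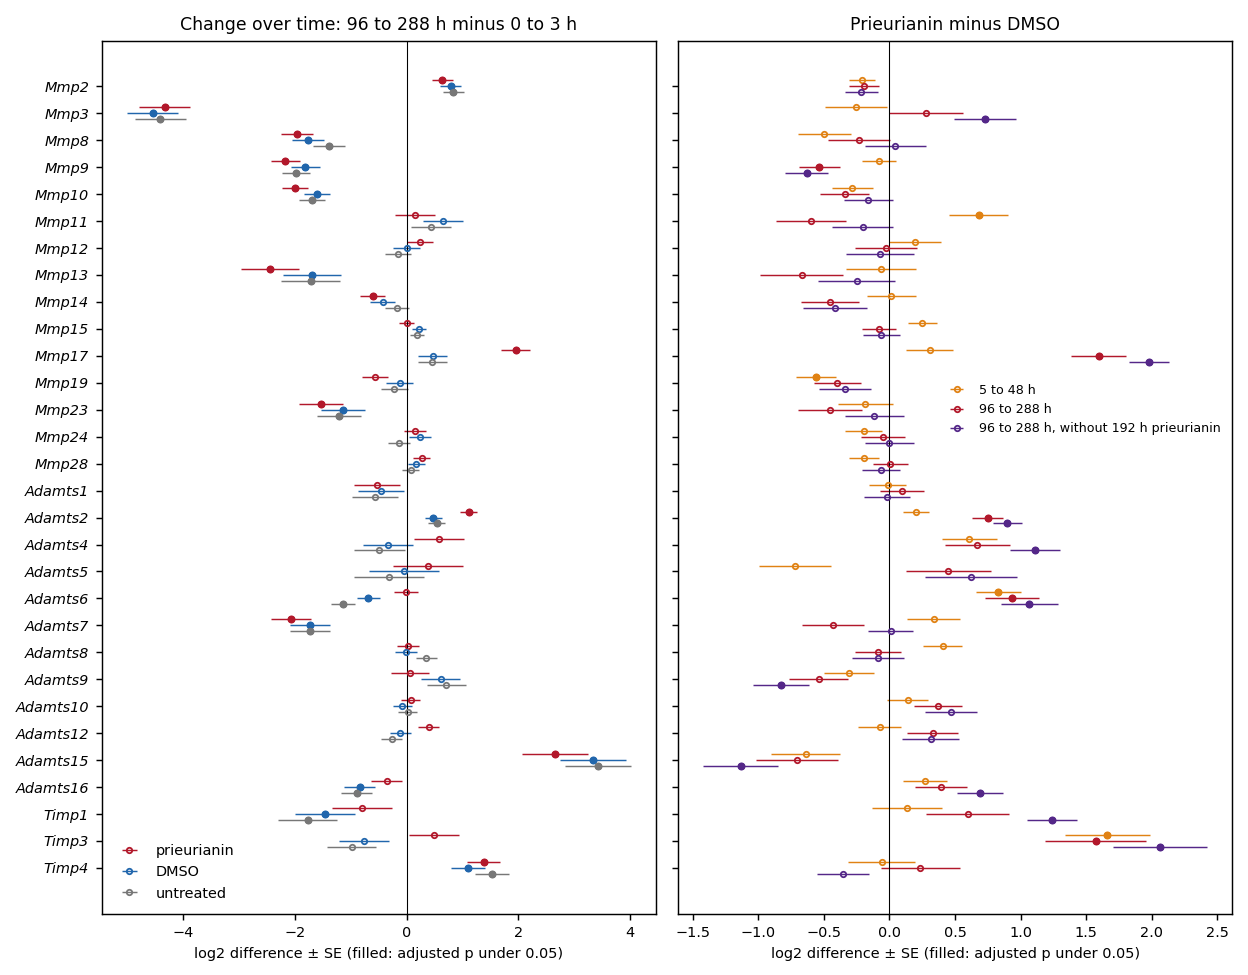
Left, change in log2 level from 0 to 3 h to 96 to 288 h for the 30 measured members in prieurianin (red), DMSO (blue) and untreated (grey) cells. Right, prieurianin minus DMSO at 5 to 48 h (orange), at 96 to 288 h (red) and at 96 to 288 h without the 192 h prieurianin array (purple). Bars are standard errors of the limma fit and filled points have an adjusted p under 0.05. Mmp3 and Adamts15 have the largest changes over the course on the left, and Timp3 and Mmp17 stand furthest to the right in the comparison with DMSO.

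Prieurianin cells were compared with DMSO cells in each window. At 0.25 to 3 h the arms did not separate. No member was called (0 of 30, and 0 of 30 at an unadjusted p under 0.05), and limma called 0% of all genes, with 300 genes at an unadjusted p under 0.05. Differences of the members ran from -0.29 (Mmp14) to 0.34 (Timp3). Adamts1, an inducible enzyme that cuts versican and aggrecan, was highest at 1 h in each arm. It stood at 15.48 at 1 h and 13.05 at 0 h in prieurianin cells, at 15.37 at 1 h and 12.77 at 0 h in DMSO cells, and at 15.05 at 1 h and 12.43 at 0 h in untreated cells. With 1 array per arm and time this maximum has no replicate check.

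At 5 to 48 h the matrix-bound inhibitor Timp3 and the proteases Adamts6 and Mmp11 were higher in prieurianin cells than in DMSO cells, and Mmp19 was lower. These are 4 of 30 members, with 11.1% of all genes called. The median difference of the members was -0.04 and that of all measured genes -0.01.

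Timp3 had the largest difference. Its log2 level lay between 9.61 and 10.99 (median 10.53) over the 7 prieurianin arrays, against 8.19 to 9.93 (median 8.45) over the DMSO arrays and 8.58 to 10.52 (median 9.58) over the untreated arrays. It was higher than in DMSO cells at 7 of 7 times, 3.16-fold on average (1.66 ± 0.32, limma adjusted p = 0.0008). At 9, 12 and 15 h it was 10.52, 10.99 and 10.91 in prieurianin cells, against 8.45, 8.19 and 8.23 in DMSO cells and 8.61, 8.58 and 8.71 in untreated cells. Both controls were thus near the low end of their ranges at these times while the prieurianin arrays were not. A second Timp3 probe gave 1.47 against DMSO over the window. At 24, 36 and 48 h prieurianin minus untreated was only 0.03, 0.43 and -0.19. DMSO minus untreated was -1.30, -0.18 and -1.24 at those times.

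Adamts6 lay between 7.68 and 8.55 (median 7.98) in prieurianin cells, against 6.79 to 7.52 (median 7.32) in DMSO cells and 7.14 to 8.07 (median 7.74) in untreated cells. The prieurianin and DMSO ranges did not overlap, and the difference was 0.83 ± 0.17 (1.78-fold, 7 of 7 times, limma adjusted p = 0.0015). From 0 to 3 h it had been 0.57, 0.38, -0.16, -0.08, 0.13 and 0.74. Over the 7 times of the window, prieurianin minus untreated was 0.22, 1.20, 0.12, 0.24, -0.12, 1.11 and 0.78. DMSO minus untreated was -0.42, 0.17, -0.66, -0.31, -1.01, -0.09 and 0.06. The part of the starting offset and of the lower DMSO levels was not tested.

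Mmp19, a metalloprotease of basement membrane proteins, lay between 7.05 and 9.03 (median 8.53) in prieurianin cells, against 8.24 to 9.37 (median 8.60) in DMSO cells and 8.69 to 9.90 (median 9.29) in untreated cells. At 9, 12 and 15 h it stood at 7.59, 7.43 and 7.05 in prieurianin cells, against 8.41, 8.24 and 8.60 in DMSO cells. The difference over the window was -0.56 ± 0.15 (6 of 7 times, limma adjusted p = 0.014), and leaving out 9, 12 or 15 h ended the call (adjusted p = 0.057, 0.063 and 0.09), as did median centring (-0.48, adjusted p = 0.15) and times not matched (0.17). Mmp11, stromelysin 3, lay between 10.31 and 11.87 (median 10.95) in prieurianin cells, against 10.11 to 11.06 (median 10.18) in DMSO cells and 10.29 to 10.93 (median 10.57) in untreated cells. Its difference of 0.68 ± 0.23 (6 of 7 times, adjusted p = 0.047) was just past the threshold and was lost in 17 of 26 alternative analyses, 12 of them without 1 time (adjusted p up to 0.22).

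Adamts5, the main aggrecan-cutting enzyme of mouse cartilage, had probes that disagreed. The brightest was at 8.0, 8.04 and 7.28 at 9, 12 and 15 h in prieurianin cells, against 9.38, 9.88 and 9.70 in DMSO cells. Over the window its difference of -0.72 ± 0.28 was not called (adjusted p = 0.088), and the other 2 probes gave 0.62 and -0.16. The mean log2 level was 10.45 for the brightest probe and only 6.87 and 6.59 for the other 2. No direction is drawn for Adamts5.

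**Figure D3:**
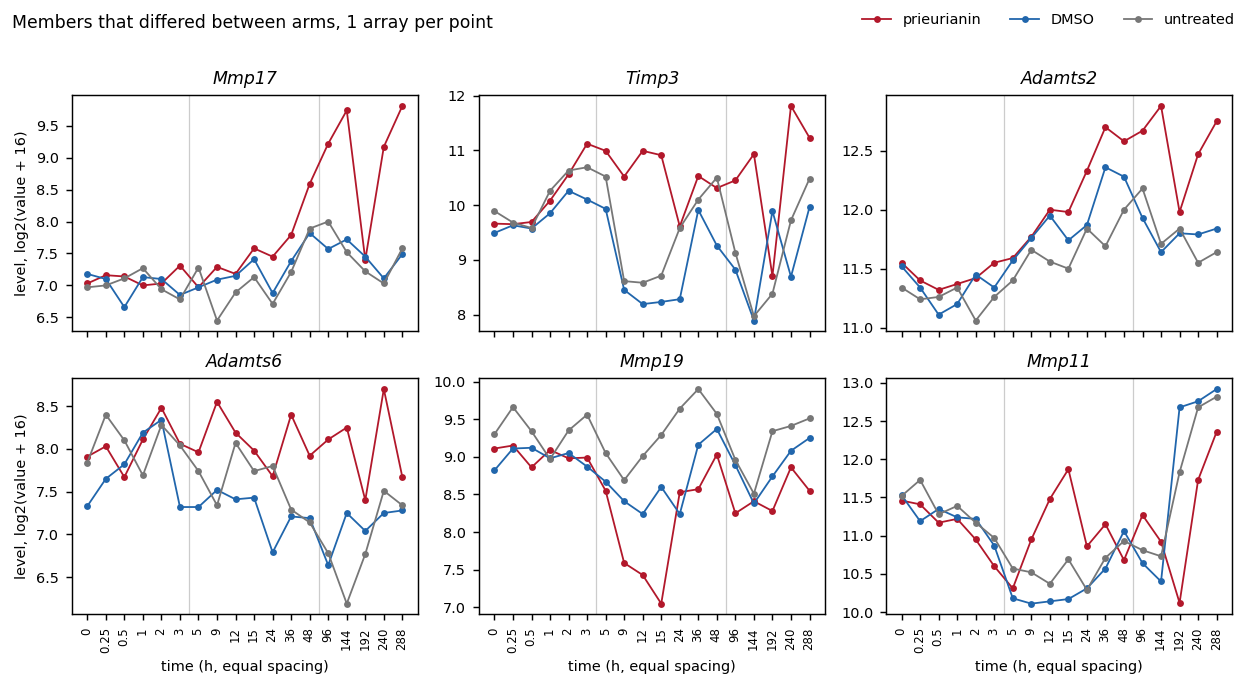
Log2 levels of 6 members at the 18 times (h, evenly spaced, not to scale), 1 array per point, with prieurianin in red, DMSO in blue and untreated in grey. Timp3 separates from both controls at 9 to 15 h and Mmp17 from 96 h on, and the prieurianin array at 192 h stands at 7.40 for Mmp17 and 8.70 for Timp3.

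At 96 to 288 h, 4 members were higher in prieurianin cells than in DMSO cells and 1 was lower, with 16.7% of all genes called. The median difference of the members was -0.04, against 0.02 over all measured genes. Without the 192 h prieurianin array 8 members were higher and 3 lower, and the calls over all 12792 genes also rose, from 2133 to 3410. The change of the prieurianin minus DMSO difference, later window minus earlier, was tested too. It was positive for 2 members, Mmp17 (1.29 ± 0.28, limma adjusted p = 0.0073) and Adamts2 (0.55 ± 0.15, adjusted p = 0.031), and negative for Mmp11 (-1.28 ± 0.35, adjusted p = 0.026), with 6.74% of all genes called. The calls of Adamts2 and Mmp11 were lost without single times (adjusted p up to 0.11 and 0.094). The change of Adamts2 was 0.34 with median centring (adjusted p = 0.50) and 0.48 as deposited (0.21). With only the arms compared the calls of Adamts2 (adjusted p = 0.064) and Mmp11 (0.12) were lost, and with times not matched those of Adamts2, Mmp11 and Mmp17 (0.25, 0.26 and 0.12). By contrast, 6 members were called without the 192 h prieurianin array, where the calls over all 12792 genes rose from 862 to 2042.

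Mmp17, a protease tethered to the membrane by a glycolipid anchor, led the rises. Its log2 level was 9.22, 9.74, 7.40, 9.17 and 9.81 at 96, 144, 192, 240 and 288 h in prieurianin cells, against 7.57, 7.72, 7.45, 7.11 and 7.49 in DMSO cells and 8.0, 7.52, 7.22, 7.03 and 7.58 in untreated cells. Except at 192 h, each prieurianin array lay above every control array. The difference from DMSO was 3.03-fold (1.60 ± 0.21, limma adjusted p = 4e-06, higher at 4 of 5 times), and 1.98 ± 0.15 without the 192 h prieurianin array.

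Adamts2 was at 12.67, 12.88, 11.98, 12.47 and 12.75 in prieurianin cells, against 11.93, 11.64, 11.80, 11.79 and 11.84 in DMSO cells and 12.18, 11.71, 11.84, 11.55 and 11.64 in untreated cells. The prieurianin and DMSO arrays did not overlap, and the difference was 0.75 ± 0.12 (1.68-fold, 5 of 5 times, limma adjusted p = 5.1e-05) with the 192 h prieurianin array and 0.90 ± 0.11 without it. A second probe gave 0.95 with all arrays. Col1a1, which encodes the main chain of a procollagen that Adamts2 trims, was also higher in prieurianin cells (1.01 ± 0.18, and 1.21 ± 0.18 without the 192 h prieurianin array), while Col3a1, which encodes another fibrillar procollagen, was not called (0.05 ± 0.12, and 0.04 ± 0.13).

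Adamts6 was at 8.11, 8.25, 7.40, 8.70 and 7.67 in prieurianin cells, against 6.64, 7.25, 7.04, 7.25 and 7.28 in DMSO cells and 6.78, 6.19, 6.77, 7.51 and 7.34 in untreated cells. All 5 prieurianin arrays lay above the highest DMSO array (0.94 ± 0.20, limma adjusted p = 0.0018, and 1.07 ± 0.22 without the 192 h prieurianin array). Timp3 was at 10.45, 10.93, 8.70, 11.81 and 11.23 in prieurianin cells, against 8.82, 7.89, 9.89, 8.69 and 9.96 in DMSO cells and 9.13, 7.97, 8.38, 9.72 and 10.48 in untreated cells. It was higher than in DMSO cells at 4 of 5 times (1.57 ± 0.38, 2.97-fold, adjusted p = 0.0048), by 2.06 ± 0.36 without the 192 h prieurianin array, and the call was lost without 240 h (adjusted p = 0.074).

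Mmp9 was the member called lower. Its level was 8.52, 7.40, 8.03, 8.29 and 8.23 in prieurianin cells, against 9.09, 7.81, 8.48, 8.81 and 8.96 in DMSO cells and 9.41, 7.60, 7.78, 8.80 and 9.10 in untreated cells. The ranges overlap, but at each time prieurianin was below DMSO (-0.53 ± 0.15, 5 of 5 times, limma adjusted p = 0.015, and -0.63 ± 0.16 without the 192 h prieurianin array). The call was lost without 240 h (adjusted p = 0.058) or 288 h (0.088), with median centring (0.097), with time as a random block (0.071) and with times not matched (0.28).

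For other members the difference from DMSO changed when the 192 h prieurianin array was left out. The DMSO array at 192 h also differed from the untreated one. DMSO minus untreated was 0.91 there for Timp1, 1.14 for Mmp3, 1.51 for Timp3 and -0.82 for Timp4. At the other late times it was -0.32 to 0.12, -1.06 to -0.33, -1.03 to -0.08 and -0.57 to 0.08. For Mmp17 it was 0.23 at 192 h. The 192 h DMSO array was not left out alone, so its part in these differences was not tested. Timp1 was at 13.36, 13.52, 11.17, 15.66 and 15.76 in prieurianin cells, against 12.78, 11.82, 13.55, 13.83 and 14.52 in DMSO cells and 12.67, 12.14, 12.64, 14.05 and 14.51 in untreated cells. It was higher than in DMSO cells at 4 of 5 times (0.60 ± 0.31, limma adjusted p = 0.20), and 1.24 ± 0.19 (adjusted p = 8.3e-06) without the 192 h prieurianin array. Timp4 was at 8.80, 8.67, 10.93, 7.37 and 7.51 in prieurianin cells, against 8.79, 8.54, 8.11, 8.69 and 7.99 in DMSO cells and 8.87, 8.46, 8.92, 9.26 and 8.24 in untreated cells (0.24 ± 0.30 against DMSO, adjusted p = 0.65, and -0.35 ± 0.20 without the 192 h prieurianin array, adjusted p = 0.20), so it was called neither way and its sign turned. Its highest late prieurianin value is the 192 h array and its lowest are those at 240 and 288 h. Mmp3 was at 9.12, 8.42, 7.25, 10.71 and 10.71 in prieurianin cells, against 9.04, 7.88, 9.45, 8.64 and 9.79 in DMSO cells (0.28 ± 0.28), and its difference was 0.73 ± 0.24 (adjusted p = 0.021) without the 192 h prieurianin array. Without it Adamts4, an aggrecan- and versican-cutting enzyme, was also higher (1.11 ± 0.19), as was Adamts16 (0.69 ± 0.17), while Adamts15 (-1.13 ± 0.29) and Adamts9 (-0.83 ± 0.21) were lower. The late Adamts16 levels of DMSO cells, 5.03 to 5.92, lay below the threshold for a measured gene.

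**Figure D4:**
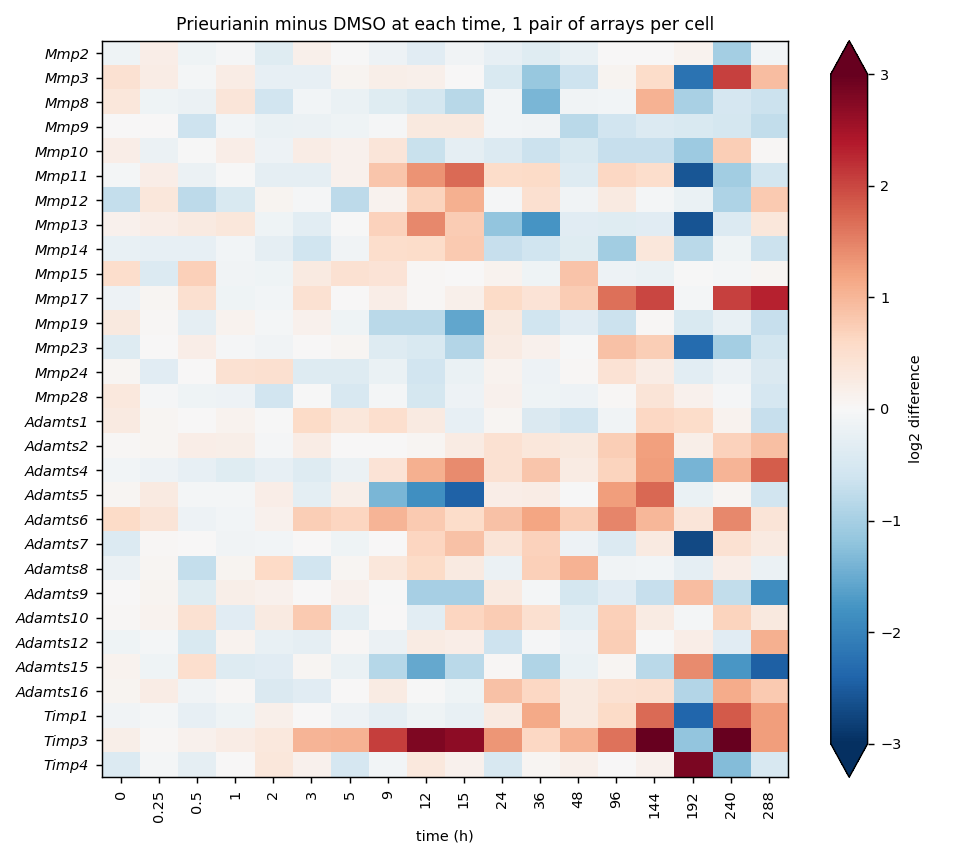
Prieurianin minus DMSO in log2 level for the 30 measured members (down) at the 18 times (across), 1 pair of arrays per cell, red where higher in prieurianin and blue where lower. Colours end at 3 on either side. Most differences are small up to 3 h, where Timp3 is at 1.02. Timp3 is red from 3 to 48 h, most at 9 to 15 h in that span, and at most late times. The 192 h column differs from its neighbours in several members. Among them are Mmp3, Mmp11, Mmp13, Mmp17, Mmp23, Adamts4, Adamts7, Adamts9, Adamts15, Adamts16, Timp1, Timp3 and Timp4.

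Against untreated cells, prieurianin cells had 4 members higher and 5 lower at 5 to 48 h (28.5% of all genes called), and 5 higher and 4 lower at 96 to 288 h (22% called). This comparison and that with DMSO share the prieurianin arrays. Late, Mmp17 (1.60 ± 0.21), Adamts2 (0.76 ± 0.12), Adamts6 (1.11 ± 0.20), Timp3 (1.49 ± 0.38) and Adamts4 (0.90 ± 0.25) were higher than in untreated cells, and Mmp19 (-0.68 ± 0.18), Mmp2 (-0.39 ± 0.12), Adamts15 (-0.99 ± 0.31) and Mmp9 (-0.44 ± 0.15) were lower. At 5 to 48 h Mmp19 (-1.20 ± 0.15, limma adjusted p = 5.2e-07), Adamts15 (-0.83 ± 0.26), Adamts5 by 1 of its probes (-1.05 ± 0.28), Mmp28 (-0.39 ± 0.11) and Mmp2 (-0.29 ± 0.10) were lower, and Timp3 (1.04 ± 0.32), Adamts6 (0.51 ± 0.17), Adamts2 (0.47 ± 0.10) and Mmp17 (0.47 ± 0.18) higher. The Adamts5 value is that of its brightest probe, whose disagreement with the others is given above, so no direction is drawn from it. It was lost with time as a random block (adjusted p = 0.053) and with times not matched (0.23). When 1 time was left out, the late calls of Timp3 (adjusted p up to 0.057), Adamts4 (0.085), Mmp2 (0.11), Adamts15 (0.17) and Mmp9 (0.20) were lost. At 5 to 48 h those of Mmp28 (0.066), Mmp2 (0.075), Adamts15 (0.089), Timp3 (0.092), Adamts6 (0.12) and Mmp17 (0.13) were. At least 1 other scaling, filter or treatment of time ended the late calls of Adamts4, Mmp2, Adamts15, Mmp9 and Mmp19, and every call at 5 to 48 h apart from that of Mmp19.

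Late, 13 members were called against untreated cells without the 192 h prieurianin array. Over all 12792 genes 3779 were called then, against 2811 with all arrays. Without it the differences were 1.98 ± 0.15 for Mmp17, 0.91 ± 0.11 for Adamts2, 1.24 ± 0.22 for Adamts6, 1.98 ± 0.36 for Timp3 and 1.33 ± 0.19 for Adamts4. They were -0.62 ± 0.20 for Mmp19, -0.41 ± 0.13 for Mmp2, -1.42 ± 0.29 for Adamts15 and -0.54 ± 0.16 for Mmp9. Timp1 (1.34 ± 0.19) and Adamts16 (0.64 ± 0.17) were then also called higher, and Timp4 (-0.68 ± 0.20) and Adamts9 (-0.86 ± 0.21) lower.

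The vehicle differed from untreated cells in few members. In DMSO cells 0 were higher and 2 were lower at 5 to 48 h, where 20.3% of all genes were called. They were Mmp19 (-0.64 ± 0.15, 7 of 7 times, limma adjusted p = 0.0027) and Mmp15 (-0.33 ± 0.11, adjusted p = 0.034), a membrane-type protease whose call ended when 5, 9, 12, 24 or 48 h was left out (adjusted p = 0.071, 0.08, 0.058, 0.089 and 0.13). It was also lost with median centring (-0.28, adjusted p = 0.10) and as deposited (-0.13, adjusted p = 0.65). At 96 to 288 h limma called 0 of 30 members, 1 of them at an unadjusted p under 0.05, with 3.65% of all genes called.

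The other measured members were not called in prieurianin against DMSO at either later window with all arrays, nor in the untreated course at 96 to 288 h. They are Mmp12, Mmp14, Mmp15, Mmp24, Mmp28, Adamts1, Adamts4, Adamts5, Adamts8, Adamts9, Adamts10 and Adamts12, with late differences from DMSO between -0.54 (Adamts9) and 0.67 (Adamts4).

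Other genes of matrix proteolysis were read from lists. Counts in this and the following lists stand beside the shares called over all genes. For prieurianin against DMSO these were 11.1% at 5 to 48 h and 16.7% late, and for the late untreated course 34.3%. Without the 192 h prieurianin array 3410 of 12792 genes were called late against DMSO. A count near its share is not read as a result about a list. Of 5 measured genes of the plasminogen system, which activates several pro-metalloproteases, 1 was higher in prieurianin than in DMSO cells at 5 to 48 h and 3 were at 96 to 288 h, with 0 lower in either window. Late, the urokinase receptor Plaur was higher by 1.33 ± 0.29, the tissue activator Plat by 1.03 ± 0.27 and urokinase itself, Plau, by 0.72 ± 0.19 (limma adjusted p = 0.002, 0.0075 and 0.0085). The count was 4 higher without the 192 h prieurianin array, with Plaur at 1.84 ± 0.22, Plat at 1.63 ± 0.12 and Plau at 0.84 ± 0.20. Late in the untreated course 0 of the 5 were higher and 4 were lower, with Serpinb2, a urokinase inhibitor, at -1.91 ± 0.53.

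Of 14 measured matrix substrates, 4 were higher in late prieurianin cells than in DMSO cells and none was lower. They were Thbs1, an adhesive glycoprotein (1.50 ± 0.34), Fbn1, fibrillin (0.87 ± 0.22), the proteoglycan Vcan (0.51 ± 0.12) and fibronectin, Fn1 (0.42 ± 0.15), and without the 192 h prieurianin array 6 were higher and 1 lower. Their values were then 2.00 ± 0.30 for Thbs1, 1.24 ± 0.18 for Fbn1, 0.41 ± 0.12 for Vcan and 0.65 ± 0.13 for Fn1. In the untreated course 1 was higher, Lama4 of the basement membrane (0.94 ± 0.22), and 5 were lower, with Thbs1 at -3.79 ± 0.78 and Fbn1 at -1.83 ± 0.34. Over all genes 16.7% were called late against DMSO and 34.3% late in the untreated course.

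Of 11 measured factors known to act on Mmp promoters, 4 were higher in prieurianin than in DMSO cells at 5 to 48 h (Fos at 0.65 ± 0.19, Ets2 at 0.49 ± 0.14, Fosl2 and Jun) and 3 at 96 to 288 h (Ets1 at 0.98 ± 0.30, Fos at 0.85 ± 0.22 and Fosl2 at 0.83 ± 0.16). The late count was 4 without the 192 h prieurianin array, with Ets1 at 1.27 ± 0.30, Fos at 1.20 ± 0.18 and Fosl2 at 0.99 ± 0.16. None was lower. In the untreated course none was higher and 5 were lower late, led by Fos (-3.84 ± 0.64), Junb (-2.80 ± 0.27) and Fosb (-2.28 ± 0.68). Over all genes 11.1% and 16.7% were called against DMSO in these windows, and 34.3% late in the untreated course. Whether these factors bear on the Mmp levels was not tested.

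Among 8 ADAM sheddases, membrane proteases related to the ADAMTS enzymes, 2 were higher in prieurianin than in DMSO cells at 5 to 48 h and 3 at 96 to 288 h, with Adam19 at 0.88 ± 0.12 and 1.20 ± 0.14 and Adam8 at 0.71 ± 0.23 and 1.03 ± 0.28. None was lower, and without the 192 h prieurianin array 3 were higher and 1 lower late, with Adam19 at 1.10 ± 0.15 and Adam8 at 1.56 ± 0.18. In the untreated course Adam15 (1.62 ± 0.22) and Adam12 (1.41 ± 0.40) rose and Adam19 fell (-0.47 ± 0.17), where 34.3% of all genes were called. Of 5 ADAMTS-like genes, which lack the protease domain, 0 were called in prieurianin against DMSO in either later window. Adamtsl4 rose over the untreated course (2.36 ± 0.24), Papln rose (0.48 ± 0.16) and Adamtsl5 fell (-1.19 ± 0.15).

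Of 8 measured membrane regulators and activators, Sdc4 (0.61 ± 0.14) and Bsg, an inducer of Mmp synthesis (0.50 ± 0.15), were higher in prieurianin than in DMSO cells at 5 to 48 h, and 0 were called late (4 higher without the 192 h prieurianin array). In the untreated course Bsg (1.12 ± 0.18) and Reck, a membrane-anchored Mmp inhibitor (1.11 ± 0.31), rose. Of 8 other measured matrix proteases and their helpers, Bmp1, the procollagen C-proteinase, was higher late (0.80 ± 0.21) and Ctsk, cathepsin K, lower (-0.66 ± 0.21), and 0 were called at 5 to 48 h. Late counts were 2 higher and 0 lower without the 192 h prieurianin array, with Bmp1 at 1.05 ± 0.20 and Ctsk no longer called (-0.43 ± 0.20, adjusted p = 0.12). Both Bmp1 (-0.64 ± 0.22) and Pcolce (-0.55 ± 0.21) fell in the untreated course.

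Markers of cell state moved with these results. Of 7 fat cell markers 0 were higher and 6 lower in late prieurianin cells than in DMSO cells (7 lower without the 192 h prieurianin array). Of 4 contractile markers 3 were higher and 0 lower, and the mean log2 level of that list was 11.39 to 11.93 in late prieurianin cells, against 7.85 to 9.36 in DMSO cells and 7.95 to 9.38 in untreated cells. The part of either change in the Mmp17, Adamts2, Adamts6 and Timp3 differences was not tested. Of 6 preadipocyte and fibroblast markers 2 were higher and 2 lower late, and of 2 measured cartilage markers and 1 endothelial marker 0 were called. The macrophage list had 0 late calls (1 higher without the 192 h prieurianin array) and the neutrophil list 0.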

How the data were processed

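Total RNA from each sample was converted to amino allyl RNA, labelled with Cy5 and read on a Phalanx mouse array, 1 colour per array, per the labels' protocols. The deposited values were taken as linear intensities from their range, since no label names a unit. They ran from -83 to 65497, with 0.466% below 0. On each array, 93 to 176 probes lay within 50 units of the maximum and count as saturated. The scanner, any background step or scaling by the authors, and the build of the array design are not given in the sources used here. The number of arrays limits the precision.

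Intensities were quantile normalised, floored at 0 and expressed as log2(value + 16). Of 29922 probes, 21020 carried 1 gene symbol, 0 several, and 8902 are unnamed here. Of the named probes, 17558 had a current symbol in a RefSeq table (GRCm38.p6, used for names), 3410 were updated and 52 kept theirs. Each gene was read through its brightest probe by mean, and 12 members had several probes. Probe sequences were not used here, so binding to a close relative of the gene was not tested.

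Fits used limma 3.58.1 in R 4.3.3 (lmFit and eBayes, two-sided), with Benjamini-Hochberg adjustment over 12792 genes. Arms were compared over the 51 arrays after 0 h with time as a factor (28 residual degrees of freedom), and courses over all 54 arrays as means per arm and window (45 degrees of freedom). Each fit has 1 shared estimate of the spread. Samples of different arms are matched by time and by nothing else. The fits were tested on simulated data. Promoter motifs were searched on both strands.

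Alternatives were median centring, the values as deposited, a pseudocount of 64, no filter on dim genes, every probe, time as a random block or not matched, only the arms compared, and leaving out each time or the 192 h prieurianin array. Values are given for the measured Timp genes and for members called against DMSO or in the untreated course, in every array for those with the largest changes, and otherwise by range. Of each other gene list, the called genes with the 3 largest differences are named. The members, lists and tests were chosen with earlier results of these data known, so counts over them are no independent support.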

Additional observations from a re-analysis of the deposited data

Results flagged for a closer look

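In 14 groups of per-time differences between prieurianin and DMSO, from the members called in either later window, the value furthest from the rest was set against the range of its group, a test that chance passes in about 1 of 20 groups. It picked out 2 values. For Mmp17 the difference at 192 h was -0.05, against 1.65 to 2.32 at the other 4 late times. The 192 h prieurianin array is the one with the fat cell marker mean of 14.52. For Mmp9 the difference at 48 h was -0.81, against -0.12 to 0.29 at the other 6 times from 5 to 48 h.

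The difference between prieurianin and DMSO itself changed between 5 to 48 h and 96 to 288 h for 3 members, in a test where 6.74% of all genes were called. The late difference minus the earlier one was 1.29 ± 0.28 for Mmp17 (limma adjusted p = 0.0073), 0.55 ± 0.15 for Adamts2 (adjusted p = 0.031) and -1.28 ± 0.35 for Mmp11 (adjusted p = 0.026). Without the 192 h prieurianin array it was 1.67 ± 0.19 for Mmp17, 0.70 ± 0.14 for Adamts2 and -0.88 ± 0.30 for Mmp11. The call of Adamts2 was lost without any 1 of 7 times (adjusted p up to 0.11), with median centring (0.34, adjusted p = 0.50), as deposited (0.48, 0.21), with only the arms compared (0.064) and with times not matched (0.25). That of Mmp11 was lost without any 1 of 6 (adjusted p up to 0.094), with only the arms compared (0.12) and with times not matched (0.26), and that of Mmp17 with times not matched (0.12). For Mmp11 the log2 levels at 192, 240 and 288 h were 10.12, 11.73 and 12.36 in prieurianin cells, against 12.68, 12.76 and 12.92 in DMSO cells and 11.83, 12.68 and 12.82 in untreated cells.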

How the results depend on the processing

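Of 81 calls of a member in a comparison, 47 were kept in every alternative run. Over 2008 values under alternatives, 1852 kept the call, 156 lost it and 0 reversed. Median centring gave 5 members for prieurianin against untreated at 5 to 48 h (9 in the analysis reported) and 1 for DMSO against untreated at 5 to 48 h (2 reported), and values as deposited also gave 1 there. With no replicate block, that is with times not matched, prieurianin against DMSO at 5 to 48 h had 2 members (4 reported), prieurianin against untreated had 3 at 5 to 48 h and 4 late (9 each), and the change of the prieurianin minus DMSO difference between windows had 0 (3 reported). With time as a random block, prieurianin against untreated had 5 members in each later window. With only the arms compared, DMSO against untreated at 5 to 48 h had 7 and the change between windows 1. With every probe, DMSO against untreated at 5 to 48 h had 4. Over all 12792 genes, 3324 and 2471 were called with the random block, and 3507 for DMSO against untreated with only the arms compared. Of 15765 probes, 3555 were called with every probe. Without the 192 h prieurianin array, prieurianin against DMSO late had 11 (5 reported), the change between windows 6 and DMSO against untreated at 5 to 48 h 5, the last through the shared spread. That last comparison called 3020 of all genes.

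When 1 time was left out, the count for prieurianin against DMSO ran from 0 to 0 at 0.25 to 3 h, from 2 (without 9, 12 or 15 h) to 7 (without 192 h) at 5 to 48 h and from 4 to 11 (without 192 h) late. For prieurianin against untreated it ran from 5 to 13 at 5 to 48 h and from 7 to 13 late. For DMSO against untreated it ran from 1 to 5 at 5 to 48 h and from 0 to 0 late. The untreated course gave 6 to 10 at 5 to 48 h and 11 to 16 late, the DMSO course 12 to 14 and the prieurianin course 12 to 15, and the change between windows 1 to 5. The causes of these changes were not tested, beyond the fewer arrays.

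Over all genes, scaling moved counts and the share higher. For prieurianin against DMSO at 5 to 48 h, 847 of 1424 called genes were higher as reported, 555 of 581 with median centring and 422 of 647 as deposited. Late these were 936 of 2133, 309 of 810 and 429 of 1379. For prieurianin against untreated at 5 to 48 h they were 1664 of 3642, 842 of 2297 and 962 of 3289, and late 1462 of 2811, 645 of 1327 and 594 of 2811. For DMSO against untreated at 5 to 48 h they were 1212 of 2596, 539 of 2766 and 748 of 2079, and late 402 of 467, 32 of 32 and 17 of 17. The untreated course at 5 to 48 h had 1062 of 2086, 647 of 1254 and 219 of 1234. In the late courses, values as deposited gave 764 of 3100 in prieurianin cells (1963 of 3884 reported), 1124 of 3231 in DMSO cells (2116 of 4173) and 1091 of 3698 in untreated cells (2169 of 4385). The median of all genes moved to -0.18 with median centring for DMSO against untreated at 5 to 48 h, and as deposited to between -0.11 and -0.17 in the 4 courses and in prieurianin or DMSO against untreated late. The change between windows was positive for 366 of 862 called genes, 21 of 233 with median centring and 46 of 183 as deposited, and had 561, 9, 213 and 2042 calls with a random block, unmatched times, only the arms compared and without the 192 h prieurianin array. With unmatched times, 411 and 657 genes were called for prieurianin against DMSO at 5 to 48 h and late, 1962 and 1227 against untreated, and 1366 and 125 for DMSO against untreated. Without the 192 h prieurianin array 3410 were called late for prieurianin against DMSO, and with only the arms compared 787 for DMSO against untreated late.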
